A study of Mus musculus with 18 samples.

Results

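The footprints that carry new mRNA after 40 min of labelling were compared, gene by gene, with those after 20 min. Cells of the mouse macrophage line RAW264.7, which came from a virus-induced tumour and divides in culture, had received 200 µM 4-thiouridine (4sU), a uridine analogue that enters RNA as it is made, and no other agent. The compared groups were ribosome footprints of cells labelled for 40 min and of cells labelled for 20 min, each with 1 library from experiment 1 and 1 from experiment 2, paired by experiment. Footprints of cells without 4sU, from experiment 1 alone, gave the background, and the input RNA of the same 4 lysates and the 30 min footprints of experiment 2 were used beside them. The series holds 18 libraries, and the labels do not say whether the experiments were separate cultures, so the p-values measure the spread between these libraries only. With so few libraries, that spread was estimated with information shared between genes. Genes entered with a mean of at least 100 reads over the 4 compared footprint libraries, which held for 8889 of 14002 genes, and 5238 of these had the 20 converted reads in all that a test needed. Membership used read totals only. The minimum for a test used converted reads over both times, so a gene could reach it through the 40 min libraries alone. At the limit, F8a and Pisd with a mean of 100 reads were inside, with 11 and 0 converted reads, and Chst3 and Trp53i13 with 99.75 were outside, with 14 and 0.

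A ribosome that translates an mRNA shields a short stretch of it from nuclease, and these stretches are the footprints. Chemical treatment makes a 4sU read as C in place of T, so a footprint with a T-to-C change can come from an mRNA made during the labelling. An mRNA must be transcribed, processed, exported and loaded with a ribosome before it can appear here, and among mRNAs at steady state those with a short life are replaced sooner. In macrophages the mRNAs of cytokines, of feedback inhibitors of NF-kB and of immediate-early factors are known for rapid turnover, and those of metabolic enzymes and lysosomal proteins for long lives.

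Across each library, the share of footprint reads with at least 1 conversion was 1.29% in experiment 1 and 0.872% in experiment 2 at 40 min, against 0.458% and 0.313% at 20 min. The share was thus 2.81 and 2.79 times as high at 40 min, a gain of 0.829 and 0.559 percentage points. The unlabelled footprints were at 0.298%, so that at 20 min experiment 2 stood only 0.0155 percentage points above this background, which had been measured in the other experiment. Reads with at least 2 conversions, which made up 0.00161% of the unlabelled footprints, were at 0.175% and 0.0648% at 40 min, against 0.0201% and 0.00826% at 20 min. Input of the same lysates gained 1.29 and 1.18 percentage points. The 4 footprint libraries held 20017786 to 59738585 reads, so the 95% Wilson intervals, which cover counting error only, were narrow, at 1.28% to 1.29% and 0.869% to 0.875% at 40 min. With 2 pairs of libraries no exact test could reach the threshold, and the library-wide values carry none. The 10 macrophage markers on a fixed list were all present and summed to 9779 to 12483 CPM (reads per gene scaled to the library total) in the 4 libraries, whereas 16 markers of other cell types summed to 0.238 to 0.895 CPM, with 4 of them listed.

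**Figure D1:**
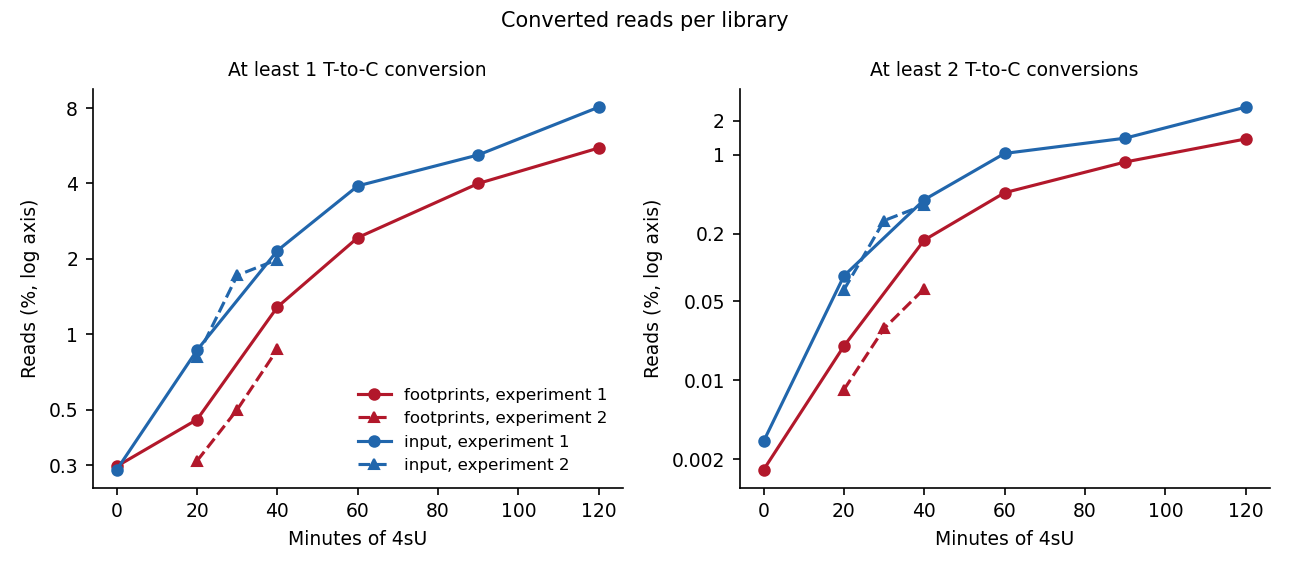
Share of reads with at least 1 (left) and at least 2 (right) T-to-C conversions, in percent on a log axis, against minutes of 4sU; each point is 1 library, with footprints in red and input in blue, circles for experiment 1 and triangles for experiment 2. The 40 min footprints stand above the 20 min footprints in both experiments, at 1.29% and 0.872% against 0.458% and 0.313% in the left panel.

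For each gene the gain was the converted share at 40 min minus that at 20 min, and the relative gain divided it by the gain of the whole library in the same experiment, so that 1 is the library-wide pace and a constant background drops out. The gains differed widely between genes. The largest relative gains, above 25, belonged to inhibitors of inflammatory signalling and other regulators, whereas Pkm, Pgk1 and Lyz2, abundant mRNAs of glycolysis and the lysosome, gained less than the library. Over all genes tested, 1117 had a larger gain than the library (21.3%) and 1238 a smaller one (23.6%), by limma with Benjamini-Hochberg adjustment at 0.05. With 1 gain per experiment and 1 residual degree of freedom, the standard errors and small p-values rest on a spread shared between genes. Of the larger ones 1116, and of the smaller ones 1238, lay on the same side of 1 in both experiments. The call uses these same values, so this adds no support. Over all 5238 genes tested, 1922 lay above 1 and 2393 below 1 in both experiments. A relative gain of at least 5 was called in 488 genes and of at least 10 in 197. The genes with a smaller gain had a median of 6116 reads per library, those with a larger one 1247 and all genes tested 2324. The part of read depth in the counts by list was not tested. The relative gains of the experiments correlated with a Spearman coefficient of 0.736 across 5238 genes, which share their libraries and are no replicates. Without the pairing by experiment 604 and 304 genes were called, and without the minimum of converted reads, over all 8889 members, 246 and 15. Among genes described in the following paragraphs, Tnf, Rgs1, Pgk1, Rps25, Pabpc1, Hspa8, Srsf7, Psmd7, mt-Nd4l, Hist1h1a, Capns1, Gaa, Mlkl, Creb3, Mast3 and Ppip5k1 kept their direction without the pairing but did not pass, with limma adjusted p of 0.0518 to 0.255.

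**Figure D2:**
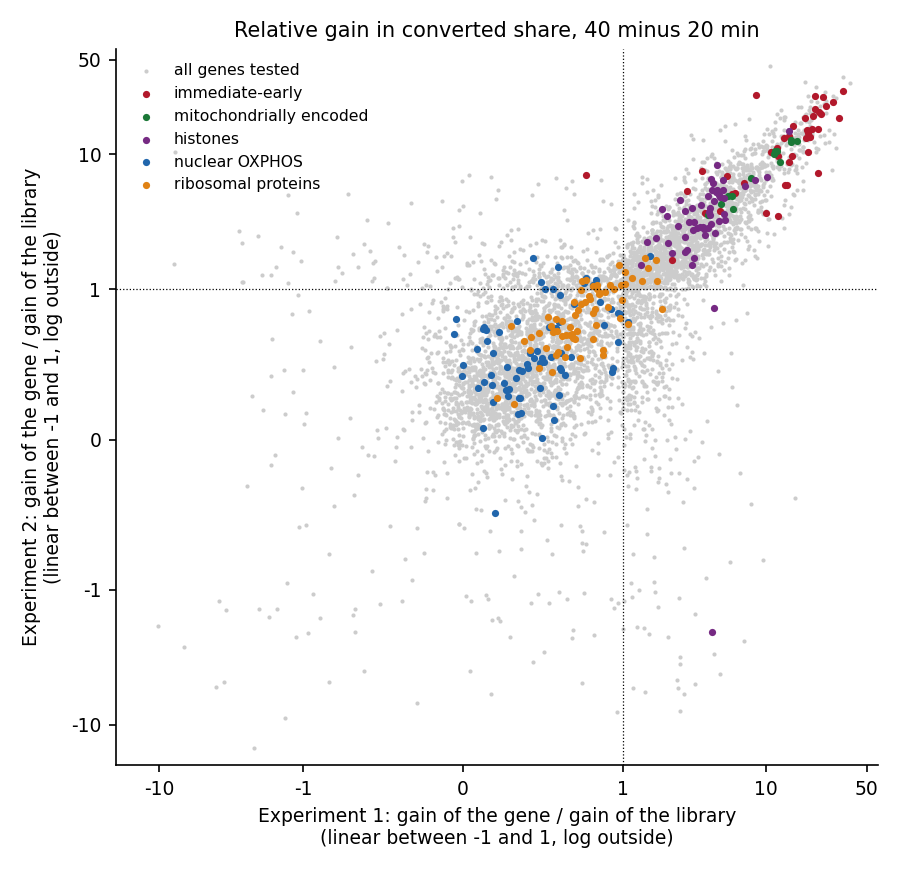
Relative gain in converted share from 20 to 40 min in experiment 2 against experiment 1, 1 point per gene tested, on axes that are linear between -1 and 1 and logarithmic outside; dotted lines mark the library gain. Immediate-early regulators (red) and mitochondrially encoded mRNAs (green) lie above 1 in both experiments, apart from Klf4, and nuclear genes of oxidative phosphorylation (blue) have a median of 0.493 over the 74 tested.

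Among the inflammatory genes tested, Tnfaip3 had the largest relative gain. Tnfaip3, a ubiquitin-editing inhibitor of NF-kB signalling, had a converted share of 37.7% and 22.1% at 40 min, against 6.11% and 3.23% at 20 min. Those were 60 of 159 and 57 of 258 reads at 40 min, against 8 of 131 and 15 of 464 at 20 min. Its unlabelled footprints were at 0.546%. Within both experiments its share was higher at 40 min than at 20 min, as in 4653 of the 5238 genes tested (88.8%). Its gain was 35.7 times the library gain (SE 3.85, limma adjusted p = 4.82e-06). Nfkbia, which encodes the inhibitor IkB alpha that NF-kB itself induces, had 28.0% and 16.5% at 40 min, against 6.34% and 2.61% at 20 min, with 0.293% in unlabelled footprints. Its gain was 25.4 times the library gain (SE 1.05, limma adjusted p = 1.8e-10), with 26.2 in experiment 1 and 24.9 in experiment 2. Nfkbiz, the nuclear relative IkB zeta, gained 30.9 times the library gain (SE 6.07, limma adjusted p = 9.42e-04), but 10.6 in experiment 1 and 44.8 in experiment 2 from 70 converted reads.

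Receptors, ligands and adhesion molecules followed at smaller gains. Tlr2, the receptor of bacterial lipoproteins, had 8.99% and 7.25% at 40 min, against 1.57% and 0.965% at 20 min, and gained 10.0 times the library gain (SE 0.518, limma adjusted p = 4.17e-09). Icam1, an adhesion molecule for leukocytes, had 4.27% and 1.82% at 40 min, against 0.451% and 0.162% at 20 min, and gained 3.65 times the library gain (SE 0.312, limma adjusted p = 8.41e-06). Tnf, the cytokine, was named after its values were seen. It already had high shares at 20 min, with 40.0% and 26.7% at 40 min, against 22.4% and 15.3% at 20 min, and gained 20.7 times the library gain (SE 4.26, limma adjusted p = 0.00155). Without the pairing by experiment Tnf did not pass (limma adjusted p = 0.128). The chemokine genes Ccl2, Ccl3 and Ccl4 lay between, at 9.26, 13.2 and 14.9 times the library gain. By list, inflammatory genes had 19 higher and 0 lower of 25 tested among 31 members, against 21.3% and 23.6% of all genes tested. The other 6 members had too few converted reads for a test, and over all 31 members the median relative gain was 5.21, against 0.755 over all 8889 genes. Among the subunits of NF-kB, Rel gained 6.17 times the library gain, whereas Nfkb1 and Nfkb2 did not pass, at 0.641 and 0.105 (limma adjusted p = 1.6e-05, 0.223 and 0.202). The chemokine and subunit genes were named after their values were seen.

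Several of these genes have letters of the NF-kB consensus close to their start, and the promoters of 4 genes with relative gains of at least 10 are shown because their products act in the NF-kB and interferon pathways. The sequences are RefSeq promoters in build GRCm38.p6, 250 bases before to 50 after the annotated start, 5′ to 3′ on the strand of the gene, with each match to the NF-kB consensus on either strand in capitals, and overlapping matches run together. Tnfaip3 and Irf1 have 2 annotated starts each, of which only the start with the most matches is shown.
Nfkbia (chr12:55492598-55492897, minus strand): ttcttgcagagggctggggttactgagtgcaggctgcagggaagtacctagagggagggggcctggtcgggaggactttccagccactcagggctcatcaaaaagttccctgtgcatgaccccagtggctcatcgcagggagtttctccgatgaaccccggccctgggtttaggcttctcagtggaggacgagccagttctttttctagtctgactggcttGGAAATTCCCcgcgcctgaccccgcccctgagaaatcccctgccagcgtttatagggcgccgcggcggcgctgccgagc
Tnfaip3 (chr10:19015361-19015660, minus strand): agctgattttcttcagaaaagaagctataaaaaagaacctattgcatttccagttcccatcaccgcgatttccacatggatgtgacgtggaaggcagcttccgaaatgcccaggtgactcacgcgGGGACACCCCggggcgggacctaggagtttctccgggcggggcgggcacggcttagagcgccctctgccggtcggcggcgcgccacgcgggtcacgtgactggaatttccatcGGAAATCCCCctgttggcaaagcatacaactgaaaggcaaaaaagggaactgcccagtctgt
Tlr2 (chr3:83841559-83841858, minus strand): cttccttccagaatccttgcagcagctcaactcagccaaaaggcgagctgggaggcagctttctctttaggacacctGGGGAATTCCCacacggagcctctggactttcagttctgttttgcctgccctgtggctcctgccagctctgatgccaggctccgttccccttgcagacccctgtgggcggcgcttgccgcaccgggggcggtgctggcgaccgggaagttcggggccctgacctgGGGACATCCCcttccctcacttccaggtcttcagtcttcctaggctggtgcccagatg
Irf1 (chr11:53769764-53770063, plus strand): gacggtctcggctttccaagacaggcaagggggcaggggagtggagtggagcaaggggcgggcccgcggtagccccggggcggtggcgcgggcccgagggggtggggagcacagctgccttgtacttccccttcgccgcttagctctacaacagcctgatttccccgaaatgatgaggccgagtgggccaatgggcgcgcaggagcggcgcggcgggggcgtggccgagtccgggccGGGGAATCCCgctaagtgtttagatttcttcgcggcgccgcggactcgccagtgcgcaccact
The consensus, 10 letters long, was held by 4.505% of 32851 promoters, and by 5.96% of the 4042 tested genes that had an entry. A gene counted if any of its starts held a match, so the gene shares are not directly comparable with the share of promoters. Of 18 tested inflammatory genes with an entry, 8 held it, as did 4 of 32 tested immediate-early genes. A match is a description of the letters and not of binding.

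The immediate-early regulators are factors whose mRNAs cells make at once on a stimulus and degrade quickly. All 42 members could be tested. Of these 35 had a larger gain than the library and 0 a smaller one, against 21.3% and 23.6% of all genes tested. Their median relative gain was 13.1, with a range of 1.84 to 31.1. Rgs1, which shortens G protein signals, had 40.0% and 27.1% at 40 min, against 11.7% and 10.6% at 20 min. It was already high at 20 min, had 0 converted reads without label, and gained 31.1 times the library gain (SE 5.30, limma adjusted p = 3e-04). Without the pairing by experiment its adjusted p was 0.0526 by limma. Pim1, a short-lived survival kinase, had 27.0% and 15.5% at 40 min, against 2.92% and 1.79% at 20 min, and gained 25.5 times the library gain (SE 2.23, limma adjusted p = 7.57e-07). Junb, a subunit of the AP-1 transcription factor, had 15.5% and 6.78% at 40 min, against 2.96% and 1.33% at 20 min, and gained 11.7 times the library gain (SE 1.03, limma adjusted p = 1.23e-06). Mcl1, an apoptosis inhibitor whose protein and mRNA are both short-lived, had 6.89% and 3.92% at 40 min, against 1.05% and 0.497% at 20 min, with much larger read totals, and gained 6.56 times the library gain (SE 0.287, limma adjusted p = 1.23e-09). In all 4 genes the share was higher at 40 min than at 20 min within both experiments, as in 88.8% of all genes tested.

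The 8 largest gains by the naming rule were those of Tnfaip3, Rgs1 and Nfkbiz above and of 5 further genes. Zfp719, a zinc finger gene, had 30.1% and 21.6% at 40 min, against 1.64% and 0.683% at 20 min, which were 25 of 83 and 22 of 102 reads at 40 min, against 2 of 122 and 2 of 293 at 20 min. Its gain, 35.8 times the library gain, is a description, since it reached the minimum through its 40 min reads. Zfp87, another zinc finger gene, gained 28.4 times the library but was at 3.32% without label. Trib1, a pseudokinase scaffold for protein degradation, gained 28.4 times the library gain, with 18.4 in experiment 1 and 34.1 in experiment 2. Tagap, a GTPase-activating protein, gained 28.3 and Mylip, a ubiquitin ligase, gained 27.5 times the library gain. The limma adjusted p of these 4 was 0.00121 or less. Txnip, a thioredoxin-binding regulator of glucose uptake named after its values were seen, had 31.7% and 16.9% at 40 min, against 10.2% and 5.60% at 20 min, and gained 22.5 times the library gain (SE 1.06, limma adjusted p = 8.62e-10).

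Cdkn1a, Mdm2, Irf1 and Irf9 gained more than the library. Cdkn1a, the cell cycle inhibitor induced by p53, had 9.08% and 5.48% at 40 min, against 1.10% and 0.772% at 20 min, and gained 8.73 times the library gain (SE 0.706, limma adjusted p = 7.58e-07). Mdm2, the ubiquitin ligase that removes p53, had 5.76% and 4.10% at 40 min, against 0.427% and 0.507% at 20 min, and gained 6.43 times the library gain (SE 0.548, limma adjusted p = 1.93e-06). The p53 list had 7 higher and 0 lower of 12 tested among 19 members, against 21.3% and 23.6% of all genes tested. Its median over all members was 1.88. Irf1 and Irf9, transcription factors of the interferon response, gained 15.9 and 9.20 times the library gain. Both values are descriptions, since these genes reached the minimum mostly through their 40 min reads. Irf1 had 13.7% and 9.73% at 40 min, against 0.966% and 0.611% at 20 min, and its unlabelled share was 0.847%, from 2 of 236 reads. The interferon list as a whole had 3 higher and 3 lower of 15 tested among 27 members, near the 21.3% and 23.6% of all genes tested, and a median over all members of 0.973. Irf1 overlaps a predicted gene and Irf9 overlaps Rnf31, as Junb does Prdx2, Eif4a2 does Rfc4 and Nepro does Gtpbp8, so reads of these neighbours may be mixed.

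Slc3a2, the shared heavy chain of amino acid transporters, had 6.52% and 3.83% at 40 min, against 0.963% and 0.464% at 20 min, and gained 6.32 times the library gain (SE 0.270, limma adjusted p = 1.13e-09). Slc38a2, a neutral amino acid transporter, had 4.56% and 2.63% at 40 min, against 0.996% and 0.474% at 20 min, and gained 4.08 times the library gain (SE 0.157, limma adjusted p = 1.13e-09). The transporter genes Slc7a5, Slc7a11 and Slc1a5, singled out after their values were seen, gained 2.43, 1.13 and 0.745 times the library gain, of which the first passed as higher (limma adjusted p = 0.00513, 0.966 and 0.122). Phgdh, the first enzyme of serine synthesis, had 0.348% and 0.373% at 40 min, against 0.314% and 0.287% at 20 min, with 0.252% in unlabelled footprints, and gained 0.104 times the library gain (SE 0.103, limma adjusted p = 6.92e-06). The synthetase genes Wars, Nars, Sars, Gars and Tars, singled out after their values were seen, gained 0.215, 0.364, 0.379, 0.410 and 0.472 times the library gain and passed as lower (limma adjusted p no more than 0.00231), and Aars was at 0.879 and did not pass. Atf4 itself, the factor that induces them, gained 6.30 times the library gain (limma adjusted p = 9.6e-05). The list of mRNAs with upstream reading frames and ATF4 targets had 13 higher and 9 lower of 30 tested among 32 members. Of all genes tested, 21.3% were higher and 23.6% lower. The median of the list over all members was 1.60.

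In cholesterol synthesis Insig1, the sterol sensor that holds back sterol-regulated transcription, had 6.44% and 5.94% at 40 min, against 0.716% and 0.448% at 20 min, with 1.10% in unlabelled footprints, and gained 8.59 times the library gain (SE 0.801, limma adjusted p = 2.83e-06). The list had 8 higher and 2 lower of 21 tested among 25 members, against 21.3% and 23.6% of all genes tested. Its median over all members was 1.28.

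Hspa5, the main chaperone of the endoplasmic reticulum, had 2.84% and 1.76% at 40 min, against 0.818% and 0.435% at 20 min over a mean of 147079 reads and gained 2.40 times the library gain (SE 0.0945, limma adjusted p = 3.26e-08). Xbp1, a transcription factor of the unfolded protein response, gained 4.44 times the library gain (SE 0.396, limma adjusted p = 6.83e-06). Hsp90b1, another abundant reticulum chaperone, had 0.465% and 0.345% at 40 min, against 0.215% and 0.157% at 20 min, and gained only 0.319 times the library gain (SE 0.0967, limma adjusted p = 4.55e-05). The reticulum list had 3 higher and 10 lower of 21 tested among 22 members, and the heat-shock list 3 higher and 2 lower of 13 tested among 14 members, where 21.3% and 23.6% of all genes tested were called. In the heat-shock list Dnajb1, a co-chaperone, gained 8.28 times the library gain and Hspa8, the constitutive cytosolic chaperone, 2.44 times (limma adjusted p = 1.4e-06 and 9.87e-07).

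The mitotic list had 7 higher and 5 lower of 31 tested among 32 members, near the 21.3% and 23.6% of all genes tested, with the kinase gene Cdk1 at 2.08 and its cyclins Ccnb1 and Ccna2 at 2.29 and 2.58 times the library gain (limma adjusted p = 8.9e-06, 2.01e-06 and 1.68e-06). The list of nuclear regulators of splicing and mRNA decay had 11 higher and 2 lower of 26 tested among 29 members, with the splicing factor genes Tra2b and Srsf7 at 2.26 and 1.38 and the kinase gene Clk1 at 7.21 (limma adjusted p = 1.81e-05, 0.0181 and 2.62e-05).

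In the lists of glycolysis, nuclear oxidative phosphorylation, the proteasome and the lysosome more genes were called lower than higher. Pkm, the pyruvate kinase of glycolysis, had 0.363% and 0.359% at 40 min, against 0.243% and 0.192% at 20 min, over a mean of 445244 reads. Its unlabelled share was 0.270%, above both 20 min values. Its gain was 0.239 times the library gain (SE 0.117, limma adjusted p = 9.32e-05). Pgk1, phosphoglycerate kinase, had 0.617% and 0.555% at 40 min, against 0.350% and 0.253% at 20 min, and gained 0.446 times the library gain (SE 0.0980, limma adjusted p = 3.11e-04). Lyz2, lysozyme, the most abundant macrophage mRNA of its list, had 0.507% and 0.387% at 40 min, against 0.278% and 0.212% at 20 min, and gained 0.297 times the library gain (SE 0.104, limma adjusted p = 6.88e-05). In each of these 3 genes the share was higher at 40 min within both experiments, as in 88.8% of all genes tested. The rise was smaller than that of the library.

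By list, glycolysis had 3 higher and 12 lower of 17 tested among 19 members, nuclear oxidative phosphorylation 1 higher and 45 lower of 74 tested among 75 members, the proteasome 1 higher and 24 lower of 34 tested among 34 members, and macrophage and lysosome genes 2 higher and 22 lower of 39 tested among 43 members. Of all genes tested, 21.3% were higher and 23.6% lower. The medians of these lists over all members were 0.440, 0.494, 0.534 and 0.453, against 0.755 over all genes. Among proteasome genes Psmd2 and Psmd4, subunits of the regulatory cap, gained 0.240 and 0.104 times the library gain, and Psmd7 gained 1.41 (limma adjusted p = 3.78e-05, 3.46e-05 and 0.0420). In the glycolysis list Hk2, a hexokinase, lay above the library with 3.26 times the library gain (limma adjusted p = 8.46e-04), and its unlabelled share was high, at 2.33%.

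In genes of the translation machinery more were called lower than higher, where 21.3% of all genes tested were higher and 23.6% lower. Genes called lower had more reads than the others, and the part of read depth in these counts was not tested. Cytosolic ribosomal proteins had 5 higher and 31 lower of 69 tested among 71 members. Their median was 0.761 over all members, against 0.755 over all genes. Over those tested it was 0.792, against 0.875 over all genes tested, with a range of 0.250 to 1.68. Translation factors and other mRNAs with a terminal oligopyrimidine start had 4 higher and 8 lower of 25 tested among 26 members. The median over all members of this list was 0.816. Rps25, a small subunit protein, had 1.16% and 0.821% at 40 min, against 0.624% and 0.512% at 20 min, and gained 0.594 times the library gain (SE 0.0947, limma adjusted p = 0.00268). Eif4a1, the helicase of translation initiation, had 1.27% and 0.849% at 40 min, against 0.336% and 0.192% at 20 min, and gained 1.15 times the library gain (SE 0.0969, limma adjusted p = 0.215). Its paralog Eif4a2 had 9.60% and 5.36% at 40 min, against 1.87% and 0.830% at 20 min, and it gained 8.66 times the library gain (SE 0.639, limma adjusted p = 2.91e-07). Pabpc1, the poly(A)-binding protein, had 1.48% and 1.02% at 40 min, against 0.219% and 0.181% at 20 min, and gained 1.51 times the library gain (SE 0.103, limma adjusted p = 8.91e-04). Ribosomal protein genes have many near-identical copies in the genome, and Rps25 also overlaps Ccdc84 and Trappc4, so their shares are uncertain.

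**Figure D3:**
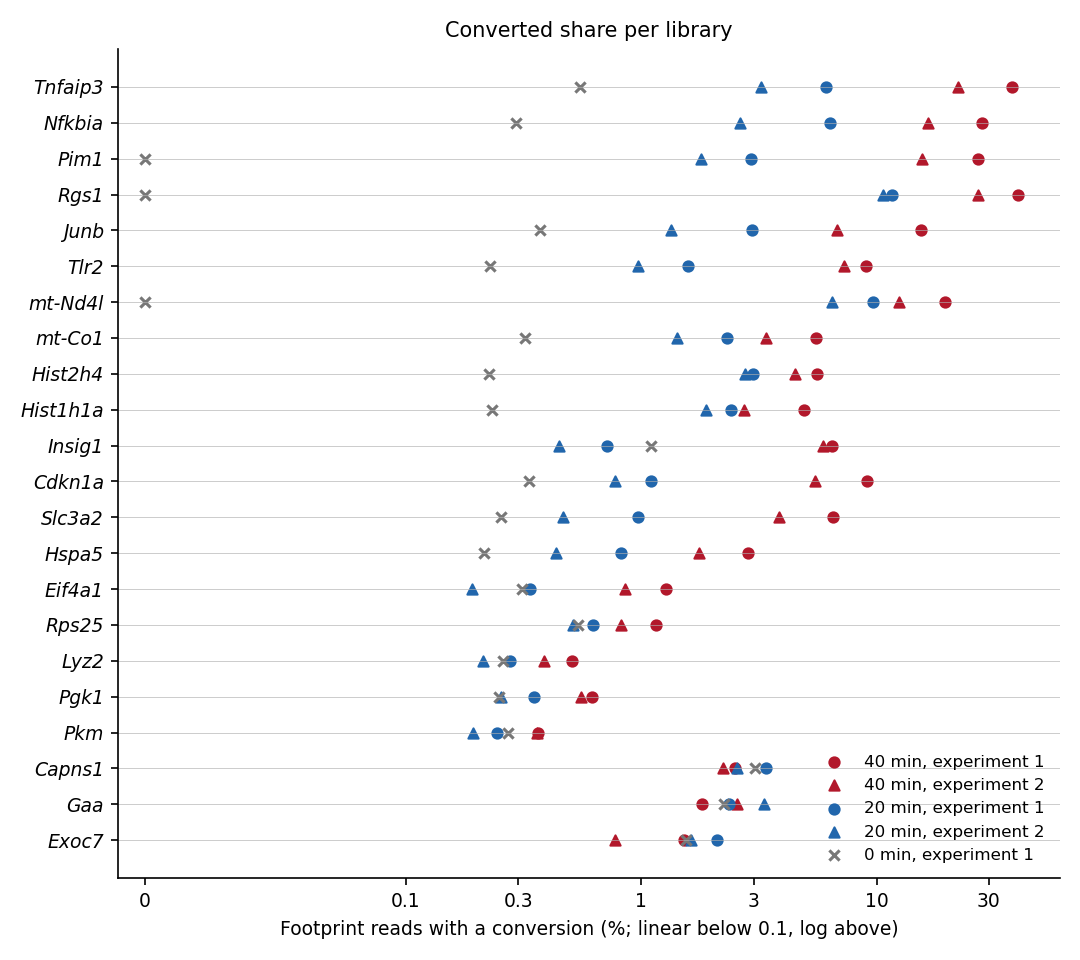
Converted share of 22 genes described in the text, chosen after their values were seen, in percent on an axis that is linear below 0.1 and logarithmic above; red marks 40 min, blue 20 min and grey crosses unlabelled footprints, with circles for experiment 1 and triangles for experiment 2. For Tnfaip3 the 40 min values are 37.7% and 22.1% against 6.11% and 3.23% at 20 min, whereas for Capns1 and Exoc7 the 40 min values are no higher than those at 20 min.

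A second measure compared odds of conversion, so that it asked whether a gene's share grew by a larger factor than the library's. The genes at the head of this order had few converted reads at 20 min. By edgeR's quasi-likelihood test 371 genes rose by more than the library (7.08%) and 305 by less (5.82%). Each had the same direction in both experiments, which adds no support, since the call uses the same reads. The count rested on the 20 min library of experiment 2, the deepest of the 4. In a fit without the pairing, which called 327 and 276 genes on all 4 libraries, 5 and 4 were called without it, and 42 and 17 without the 40 min library of experiment 1. Of the genes with a larger relative gain 339 also had a larger rise in odds, 11 a smaller one and 767 were not called, and of those with a smaller relative gain 140 had a smaller rise in odds, 1 a larger one and 1097 were not called.

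The genes highest in this order reached the minimum of converted reads, and the 50 that the naming rule asks for, mostly through the 40 min libraries, so their rank is given as a description, with no test. Without the minimum 305 and 294 genes were called over all 8889 members. Mnt encodes a repressor that competes with Myc for their shared partner. It had 22 of 363 and 34 of 705 reads at 40 min, against 0 of 295 and 2 of 1096 at 20 min, with 0 in unlabelled footprints, and a log2 odds ratio relative to the library of 3.76. Nepro, a nucleolar protein, had 6.95% and 4.68% at 40 min, against 0.431% and 0.0571% at 20 min, at 3.57. Ythdf3, a reader of methylated adenosine in mRNA, had 2.13% and 1.17% at 40 min, against 0% and 0.0718% at 20 min, at 3.39. The others named by rank were Zfp719 at 3.54, the Golgi protein gene Gorab at 3.17, Ing5 at 3.11, the transcription factor Rreb1 at 2.99, Irf9 at 2.96, the guanine nucleotide exchange factor Net1 at 2.85 and the ubiquitin ligase adaptor Kbtbd8 at 2.84. Each of these 10 had no more than 72 converted reads. Among genes with more reads Nfkbia stood at 1.22 (SE 0.16, edgeR adjusted p = 5.29e-04) from 2289.

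Rgs1 at 0.40 (SE 0.35, edgeR adjusted p = 0.467) and Tnf at -0.39 (edgeR adjusted p = 0.328) did not pass by this measure, although their relative gains were among the largest. Both had 20 min shares above 10%.

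The genes with the smallest rise in odds often carried T-to-C differences without 4sU. The unlabelled share was at least 1% in 445 of the 5238 genes tested, in 158 of the 305 with a smaller rise and in 3 of the 371 with a larger one. The median unlabelled share was 1.11% in the 305 genes with a smaller rise and 0.223% in the 371 with a larger one. Capns1, the small subunit of calpain, had 2.50% and 2.23% at 40 min, against 3.39% and 2.56% at 20 min, with 3.04% without label, and a log2 odds ratio of -1.83 (SE 0.19, edgeR adjusted p = 9.64e-05). Gaa, the lysosomal alpha-glucosidase, had 1.81% and 2.55% at 40 min, against 2.37% and 3.32% at 20 min, with 2.25% without label, at -1.89 (SE 0.24, edgeR adjusted p = 4.05e-04). Mlkl, the effector of necroptosis, had 5.09% and 1.98% at 40 min, against 4.94% and 5.30% at 20 min, with 3.32% without label, at -2.30 (SE 0.45, edgeR adjusted p = 0.00607). In Capns1, Gaa and Mlkl the time points overlapped or lay in reverse order. Exoc7, Ttc5, Ppip5k1, Mast3 and Adcy7, at -2.28, -2.41, -2.07, -2.05 and -2.08, had unlabelled shares of 1.55%, 1.86%, 1.70%, 2.70% and 1.87%. The same genes, with Creb3, were also lowest in relative gain among the genes that the naming rule could name, from -3.44 for Mlkl to -0.890 for Capns1, apart from Adcy7 at -0.797.

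Genes under 1% without label were also among the lowest. Adam8, a membrane metalloprotease, had 0.347% and 0.410% at 40 min, against 0.538% and 0.595% at 20 min, with 0.818% without label, at -2.06 (SE 0.31, edgeR adjusted p = 0.00120). Cux1, a homeodomain factor, had 0.345% and 0.377% at 40 min, against 0.501% and 0.566% at 20 min, with 0.210% without label, at -2.06 (SE 0.46, edgeR adjusted p = 0.0101). Lyz2 was at -0.62 (SE 0.10, edgeR adjusted p = 0.00120) and Pkm at -0.74 (SE 0.09, edgeR adjusted p = 4.05e-04). With genes at 1% or more without label set aside, 399 genes rose by more than the library and 178 by less.

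Reads with at least 2 conversions, which were almost absent without label, were used to ask how much of the 40 min signal was already present at 20 min. After subtraction of the unlabelled share, the 20 min share of all members was 10.7% and 10.5% of the 40 min share in experiments 1 and 2. Mitochondrially encoded mRNAs and replication-dependent histone mRNAs were above this in both experiments, and zinc finger, glycolysis and mitotic mRNAs below it. These pooled values carry no test.

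The 13 mitochondrially encoded mRNAs, made and translated inside the organelle, had pooled shares of 9.53% and 5.60% at 40 min, against 3.99% and 2.59% at 20 min. For reads with at least 2 conversions the shares were 1.65% and 0.608% at 40 min, against 0.432% and 0.232% at 20 min, so that 26.0% and 37.8% of the 40 min value was present at 20 min. All 13 had a larger gain than the library, against 21.3% of all genes tested, with a median relative gain of 10.7. By odds 0 were called in either direction, against 7.08% higher and 5.82% lower of all genes tested. By reads with at least 2 conversions 7 of 13 rose by less than the library and 0 by more, against 6.3% and 1.67%, together 7.96%, of the 540 genes with enough such reads. Mt-Co1, a subunit of cytochrome c oxidase, had 5.55% and 3.39% at 40 min, against 2.31% and 1.42% at 20 min, and gained 3.74 times the library gain (SE 0.116, limma adjusted p = 1.8e-10). Mt-Nd4l, a subunit of complex I, had 19.5% and 12.4% at 40 min, against 9.62% and 6.44% at 20 min, and gained 11.3 times the library gain (SE 1.71, limma adjusted p = 1.82e-04). Mt-Nd2 had 4.49% and 1.65% at 40 min, against 1.45% and 0.974% at 20 min of reads with at least 2 conversions, a log2 odds ratio of -1.81 (SE 0.40, edgeR adjusted p = 7.17e-04) relative to the library. Mt-Nd4l overlaps mt-Nd4, and mt-Nd6 lies opposite mt-Nd5.

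Histone mRNAs, which lack a poly(A) tail and are made in S phase, also had a large early part. Their pooled shares were 5.50% and 3.72% at 40 min, against 2.52% and 1.97% at 20 min, and 0.832% and 0.390% at 40 min, against 0.241% and 0.152% at 20 min for reads with at least 2 conversions, so that 28.8% and 38.5% of the 40 min value was present at 20 min. They had 48 higher and 0 lower of 53 tested among 54 members by relative gain, against 21.3% and 23.6% of all genes tested. Their median over all members was 3.57. By odds 11 of 53 were lower and 0 higher, against 5.82% and 7.08% of all genes tested. By reads with at least 2 conversions 18 of 42 were lower and 0 higher, against 6.3% and 1.67% of the 540 genes tested. The total reads of histone mRNAs are given further on. Hist1h1a, a linker histone, had 4.91% and 2.73% at 40 min, against 2.41% and 1.88% at 20 min, with 0.232% without label. It gained 2.30 times the library gain (SE 0.239, limma adjusted p = 4.47e-04), and its log2 odds ratio was -0.69 (SE 0.15, edgeR adjusted p = 0.00879). Hist2h4, a core histone, had 5.59% and 4.50% at 40 min, against 2.97% and 2.75% at 20 min, and gained 3.15 times the library gain (SE 0.226, limma adjusted p = 2.77e-06), with a log2 odds ratio of -0.65 (SE 0.14, edgeR adjusted p = 0.00980). The histone genes are near-identical copies, and the authors' counting may split their reads, so values of single genes are uncertain.

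Zinc finger genes named by number were added as a group after the results were seen. Their pooled shares were 4.33% and 2.65% at 40 min, against 0.875% and 0.521% at 20 min, and 0.670% and 0.265% at 40 min, against 0.0302% and 0.00822% at 20 min for reads with at least 2 conversions, of which 16 and 11 reads were found at 20 min. Only 4.06% and 1.93% of the 40 min value was thus present at 20 min. Over all 145 members the median relative gain was 5.28, and 126 lay above 1. Cholesterol genes had 3.17% and 8.64% of the 40 min value at 20 min, mitotic genes 4.20% and 4.66%, and immediate-early regulators 14.7% and 16.5%.

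Reads with at least 2 conversions are also given for single genes, at low counts. Eif4a1 had 0.175% and 0.0503% at 40 min, against 0.00268% and 4.73e-04% at 20 min of these reads, a log2 odds ratio of 3.25 (SE 0.64) relative to the library. This value is a description, since Eif4a1 reached the minimum mostly through its 40 min reads. Hsp90b1, Pabpc1 and Plau, the urokinase gene, had 0 such reads in both 20 min libraries, and 0.0331% and 0.0246%, 0.166% and 0.0927%, and 0.883% and 0.629% at 40 min. At the low end Trim25, a ubiquitin ligase of the antiviral response, had 1.06% and 1.14% at 40 min, against 0.649% and 1.16% at 20 min, but 0.949% without label. Chd4, a chromatin remodeller, had 0.0621% and 0.117% at 40 min, against 0.100% and 0.152% at 20 min, and 0.0875% without label.

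**Figure D4:**
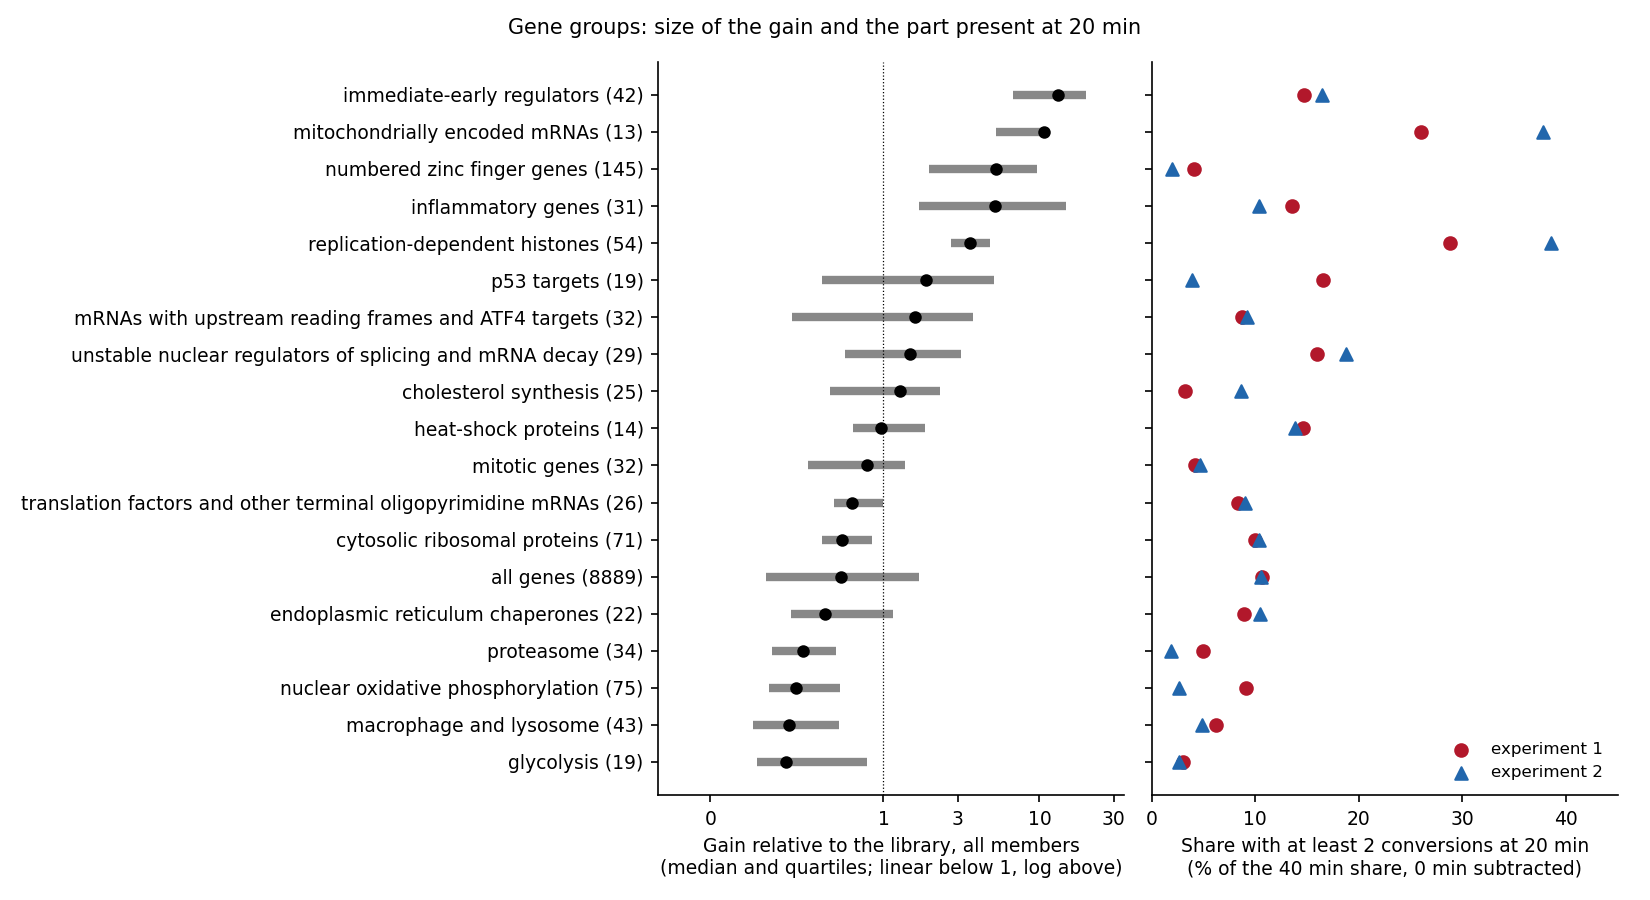
Left: relative gain of all members of each gene group from 20 to 40 min, as median (point) and quartiles (bar), on an axis that is linear below 1 and logarithmic above, with the number of members in brackets and the library gain dotted. Right: share of reads with at least 2 conversions at 20 min, in percent of the 40 min share after subtraction of the unlabelled share, with 1 point per experiment; mitochondrially encoded mRNAs are at 26.0% and 37.8% and histone mRNAs at 28.8% and 38.5%, against 10.7% and 10.5% for all genes.

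Footprints were then set against the input RNA of the same lysates, to ask whether new mRNA of a gene reached ribosomes in step with its appearance in the cytoplasmic lysate. Few genes were called. Of 4983 genes with enough reads in both materials, 1 rose by more in footprints than in input (0.0201%) and 8 by less (0.161%), each relative to its library, by an edgeR interaction test. At an unadjusted p under 0.05 there were 397. On simulated data this test recovered 43.1% of genes changed by -2 and 23.4% of those changed by 2. The small count therefore does not show that few genes differed. The relative gains in footprints and input correlated with a Spearman coefficient of 0.796 across 5219 genes.

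Prrc2c, a large RNA-binding protein gene, rose by less in footprints. Its share was 0.317% and 0.218% in 40 min footprints, against 0.214% and 0.171% in 20 min footprints, and 0.241% in unlabelled footprints. Its input share was 3.23% and 1.62% in 40 min input, against 0.348% and 0.315% in 20 min input. The difference of the log2 odds ratios, footprints minus input, was -2.22 (SE 0.41, edgeR adjusted p = 3.97e-04), so that an increase seen in input was hardly seen in footprints. Bclaf1, an RNA-processing factor, had 1.03% and 0.815% in 40 min footprints, against 0.729% and 0.637% in 20 min footprints, and 1.88% and 2.23% in 40 min input, against 0.452% and 0.599% in 20 min input, with a difference of -1.71 (SE 0.33, edgeR adjusted p = 4.73e-04). Fasn, fatty acid synthase, had 0.898% and 0.493% in 40 min footprints, against 0.251% and 0.221% in 20 min footprints, and 2.34% and 2.19% in 40 min input, against 0.323% and 0.358% in 20 min input, with a difference of -1.44 (SE 0.29, edgeR adjusted p = 0.00130). Rif1, a factor of replication timing and DNA repair, was at -2.04 (SE 0.45, edgeR adjusted p = 0.00869), Srrm2, a splicing protein, at -1.42 (SE 0.33, edgeR adjusted p = 0.0123) and Tnpo1, a nuclear import receptor, at -1.36 (SE 0.34, edgeR adjusted p = 0.0465). Zmiz1, at -3.08 (SE 0.77, edgeR adjusted p = 0.0453), was at -0.41 in experiment 1 alone, and Dcaf8, at -3.33 (SE 0.85, edgeR adjusted p = 0.0466), had only 27 converted footprint reads. In unlabelled footprints Bclaf1, Fasn, Rif1, Srrm2, Tnpo1, Zmiz1 and Dcaf8 were at 0.680%, 0.244%, 0.431%, 0.445%, 0.281%, 1.61% and 0.817%. In unlabelled input they were at 0.391%, 0.410%, 0.252%, 0.503%, 0.185%, 0% and 0.813%, in the same order. A constant background compresses an odds ratio, and its part in these differences was not tested. Without the pairing by experiment 0 and 3 genes were called, with 80 higher and 229 lower at an unadjusted p under 0.05.

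Prrc2c, Fasn, Srrm2 and Rif1 have long coding sequences, of 8538, 7512, 8109 and 7278 bases in the longest annotated form. Zmiz1, Bclaf1, Tnpo1 and Dcaf8 have 3216, 2757, 2694 and 1773 bases. Across 4851 genes the difference between footprints and input correlated with coding length with a Spearman coefficient of -0.24, a description of genes that share their libraries. Genes were set in 4 groups of equal size by coding length. From the shortest to the longest group the median differences were 0.06, 0.03, -0.17 and -0.38, with quartiles of -0.83 and 0.07 in the longest group. The median relative gain in the longest group was 0.570 in footprints and 0.865 in input, and in the shortest group 0.993 and 0.868. What moved with coding length besides was not tested.

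**Figure D5:**
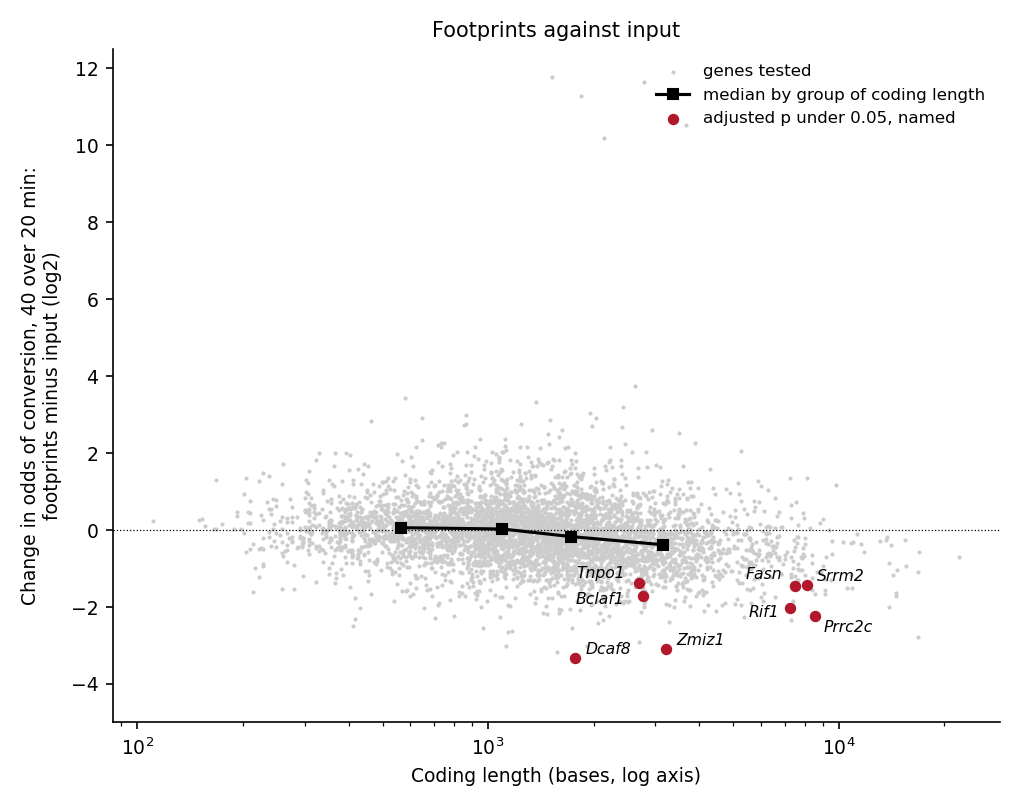
Difference of the log2 odds ratios of conversion (40 over 20 min) between footprints and input, against the length of the longest annotated coding sequence in bases on a log axis; grey points are genes tested, squares the medians of 4 groups of equal size by length, and red points the 8 genes with an adjusted p under 0.05 and a smaller change in footprints, all labelled. They lie between -1.36 and -3.33; a few grey points above 10 come from genes with 0 converted footprint reads at 20 min.

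The 30 min footprints of experiment 2 and the later footprints of experiment 1 were not used in any test and show the course around the interval. In 3886 of the 5238 genes tested the 30 min share lay between the 20 min and the 40 min share of experiment 2, and in 1079 of the 1117 genes with a larger relative gain. Those 1117 genes were called on a wide gap between these same 20 and 40 min shares, so their count adds no support. Nfkbia was at 2.61% at 20 min, 9.56% at 30 min and 16.5% at 40 min in experiment 2, and in experiment 1 at 42.2% at 60 min, 48.2% at 90 min and 51.2% at 120 min. Pim1 was at 1.79% at 20 min, 8.53% at 30 min and 15.5% at 40 min, and in experiment 1 at 42.4% at 60 min, 35.8% at 90 min and 50.4% at 120 min. Pkm was at 0.192% at 20 min, 0.199% at 30 min and 0.359% at 40 min, and in experiment 1 at 0.722% at 60 min, 1.24% at 90 min and 1.83% at 120 min. Between 60 and 120 min Nfkbia and Pim1 gained less than 10 percentage points, and Pkm stayed under 2%.

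Total footprint reads, converted or not, changed in fewer genes, and this bears on the shares since a share can move with either kind of read. By edgeR with the experiments paired, 168 genes had more reads at 40 min (1.65%) and 355 fewer (3.48%) of 10211, together 5.12%. Without the pairing 0 were called in either direction, with 58 and 89 at an unadjusted p under 0.05. The 13 mitochondrially encoded mRNAs all had more, with a median log2 change of 1.12. Mt-Co1 had 3385 and 2477 CPM at 40 min, against 1689 and 889 at 20 min, a log2 change of 1.26 (SE 0.07, edgeR adjusted p = 1.41e-75). Mt-Nd1 had 340.4 and 222 CPM at 40 min, against 159 and 85.4 at 20 min, a log2 change of 1.26 (SE 0.08, edgeR adjusted p = 8.3e-51). In both experiments the 40 min library was higher, but the unlabelled footprints of experiment 1 had 2346 CPM of mt-Co1, above its 20 min level, and the 30 min footprints of experiment 2 had 576, below it. In input mt-Co1 was at 20144 and 16211 CPM at 40 min, against 16428 and 20135 at 20 min. The part of these totals in the converted shares of mitochondrial mRNAs was not tested. With 1 residual degree of freedom, the standard errors rest on a spread shared between genes, and without the pairing the adjusted p of mt-Co1 was 1.000 by edgeR.

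Of the other genes, Tnf had 34.6 and 47.2 CPM at 40 min, against 22.0 and 27.5 at 20 min, a log2 change of 0.75 (SE 0.10, edgeR adjusted p = 6.93e-11), and Nfkbia 134 and 210.4 CPM at 40 min, against 138 and 201 at 20 min, a log2 change of 0.04 (edgeR adjusted p = 0.874). Histone mRNAs had fewer reads in 20 of 55 cases and more in 0, against 3.48% and 1.65% of all genes tested. Hist2h4 was at 481 and 515 CPM at 40 min, against 777 and 591 at 20 min. The lowest changes by rank were those of Zfp87 at -1.19, Zfp52 at -0.86, Clk1 at -0.72, Rasgef1b at -0.68 and Zfp84 at -0.63, which had relative gains in converted share of 7.21 to 28.4. Without the 20 min library of experiment 2 the change of Rasgef1b was 0.62, in the other direction. As an example, Clk1 had 25.6 and 17.4 CPM at 40 min, against 44.9 and 28.0 at 20 min, and converted shares of 5.38% and 5.15% at 40 min, against 0.111% and 0.418% at 20 min.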

How the data were processed

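Cycloheximide-treated lysates were digested with nuclease, footprints were taken from monosomes, and about 10% of each lysate was kept as input, per the labels' protocols. Fragments of 25 to 35 bases were treated with periodate to convert 4sU and sequenced. The submitters' processing notes name the aligner Bowtie 0.12.8 and the build mm10. The counting program and its handling of strand, shared reads and duplicates are not stated there or in the labels. The deposited values are raw counts of reads per gene, which the authors split by T positions and by T-to-C conversions in the read, as read from the file headers. The meaning of the columns was inferred from these headings: 0 reads had more conversions than T positions. Intervals cover counting error only, since reads were not marked by molecule.

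Members, gene lists and tests were chosen with earlier results of these data known, and the zinc finger group was added after the values were seen. Relative gains were tested against 1 with limma 3.58.1, weighted by counting variance, with the spread taken as a function of counting precision; these weights replaced others after a test on simulated data, and the earlier ones are among the alternatives. Odds of conversion were tested in edgeR 4.0.16 (R 4.3.3) with quasi-likelihood fits on paired columns of converted and unconverted reads, library totals as offsets and the experiment as a block. Input was compared by an interaction term over 8 libraries, and total reads with TMM scaling. All p-values are two-sided and Benjamini-Hochberg adjusted over all genes of a comparison, with a threshold of 0.05. Experiment numbers come from the labels; the deviations of same-numbered libraries from their group means correlated with r = 0.139 for odds and 0.771 for total reads.

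On simulated data of 5238 genes the odds ratio test recovered 87.0% of 46 genes changed by 2 on the log2 scale and 50% of 44 changed by -2, and called 0.0397% of 5038 unchanged genes; the relative gain test recovered 95.3% of 106 genes raised by 3 and 57.4% of 94 lowered by 1, and called 0.179% of 5038. For footprints against input, over 4983 genes, 43.1% of 65 genes changed by -2 were recovered and 23.4% of 47 changed by 2. Changes of -1 and 1, in 44 genes each, were recovered in 4.55% and 2.27%. Of 4783 unchanged genes 0% were called, and their median estimate was -0.15.

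Genes named in the text were, among those called with the same direction in both experiments and at least 50 converted reads, the 10 highest and lowest by odds, the 8 by gain, the 6 by footprints against input and the 5 by reads with at least 2 conversions and by total reads, and up to 3 of each list by adjusted p in the odds comparison. Predicted genes and clones were counted and not named, and some named by the rule are not reported here. The others were chosen after their values were seen. Coding lengths are from GENCODE vM21. Alternatives included other offsets, filters and pseudocounts, DESeq2 1.42.0, fits without the block and each library left out.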

Additional observations from a re-analysis of the deposited data

Results flagged for a closer look

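For 8 genes the change in converted share from 20 to 40 min differed between footprints and input by the edgeR interaction test, and they are listed here for that reason. On the log2 scale, footprints minus input, the difference was -1.36 for Tnpo1, -1.42 for Srrm2, -1.44 for Fasn, -1.71 for Bclaf1, -2.04 for Rif1, -2.22 for Prrc2c, -3.08 for Zmiz1 and -3.33 for Dcaf8. Zmiz1 was at -0.41 in experiment 1 alone, and Dcaf8 had 27 converted footprint reads. The genes Srrm2 and Elob overlap, so their reads may be mixed. The part of the unlabelled shares in these differences was not tested.

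The 30 min footprints of experiment 2 entered no test. Their converted share was 0.501%, above the 0.298% of the unlabelled footprints, which came from experiment 1.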

How the results depend on the processing

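The library-wide ratio of shares, 2.80 as the mean of both experiments, was 2.79 to 2.81 with 1 experiment left out, 3.08 per T position, 3.15 as the median over members, 8.28 for reads with at least 2 conversions, and 21.7 once the unlabelled share was subtracted, which leaves little of the 20 min share of experiment 2.

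By odds 371 genes were higher and 305 lower. DESeq2's Wald test called 74 and 81, limma called 502 lower with a pseudocount of 0.5 and 509 with 2, and 178 were lower among genes under 1% without label. With 1 library left out, in the fit without the pairing, the counts ran from 5 to 347 and from 4 to 318; without the 20 min library of experiment 2 they were 5 and 4, without the 40 min library of experiment 1 42 and 17, and without that of experiment 2 211 and 259. Without the pairing by experiment 327 and 276 were called, 561 of them shared with the paired fit.

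By relative gain 1117 were higher and 1238 lower. On the log2 scale, which keeps only genes with a gain in both experiments, 1725 and 526 were called, without the minimum of converted reads 246 and 15, and without the pairing 604 and 304, all 908 shared with the paired fit; with 1 library left out only 1 gain per gene remains, which gives a value and no test. The cause was not tested.

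For reads with at least 2 conversions 9 were higher and 34 lower, 3 and 5 without a minimum, and 22 and 35 without the pairing. Against input 1 was higher and 8 lower. With at least 50 converted reads 3 and 10 were called, with limma 14 and 40, and without the pairing 0 and 3. For total reads 168 and 355 were called, 50 and 63 with DESeq2's size factors, 29 and 17 with its Wald test, and 0 and 0 without the pairing or with any 1 library left out, where the lone library is assumed to vary like the others and 73 to 529 genes had an unadjusted p under 0.05.

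For named genes, 1254 values under an alternative kept direction and side of the threshold, 189 no longer passed, 4 newly passed, 24 values of single experiments moved and 1 turned round. That was Rasgef1b in total reads, at 0.62 without the 20 min library of experiment 2 and -1.69 without the 40 min library of experiment 2, against -0.68 with all. Without the pairing, 17 of 60 relative gains and 10 of 10 changes in total reads no longer passed. Scaling by TMM or DESeq2 moved the median of all genes by 0.02 or less. In simulated data at this depth, effects of 1 on the log2 scale were recovered by odds in 13.2% of 53 genes.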

Other observations

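The 3651 members with fewer than 20 converted reads in the 4 footprint libraries entered no test, so the counts above describe the better counted part of the 8889 genes. Over all members 3587 had a relative gain above 1.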
